A study of Drosophila melanogaster with 36 samples.

Results

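Gene expression in the thorax of control flies was compared between day 11 and day 6 of adult life. The comparison rests on 12 of the 36 arrays of the study, the 6 labelled control day 11 and the 6 labelled control day 6, chosen by their labels alone. The control flies were Mhc-Gal4/+ and thus carried the muscle driver Mhc-Gal4 without the transgene that it drives in the other flies of the study, UAS-PABPN1-17ala/+; Mhc-Gal4/+, a model of oculopharyngeal muscular dystrophy. Both genotypes were sampled at days 2, 6 and 11, each condition as 3 RNA extracts of 50 thoraxes, and the sources used here do not give the sex of the flies. Each extract was compared on 2-colour long-oligonucleotide arrays with a common reference, a pool of the control RNA of day 2, with the thorax RNA in Cy5 on replicates 1 to 3 and in Cy3 on replicates 4 to 6. Each of the 3 extracts was probably hybridized once with each dye, so 3 and not 6 replicates stand behind each age, and the p-values below measure only the spread between these arrays. Nothing in the labels says whether the 3 extracts came from separate cultures.

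The adult fly thorax is filled mostly by flight and jump muscles, which burn sugar in densely packed mitochondria, and it also holds cuticle, fat body, haemocytes, nerves, tracheae and the front part of the gut. After a fly emerges, its cuticle matures, larval stores are used up, and the adult muscles and gut take over feeding and flight. Secreted peptides made by fat body and haemocytes, such as the Bomanins, are known from infected flies as effectors of the Toll pathway.

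The values are log ratios of sample over reference as normalized by the authors. Their base is not stated in the sources used here and was taken to be 2, on which every fold below rests. A value of 0 is then the level of the day 2 control pool, and a value of 1 is 2 times that level. These ratios give no absolute level, and thus do not show whether the RNA of a tissue marker was present. The direction of the ratio is not stated in the sources used here. It was taken from GstD1, a detoxifying glutathione S-transferase with a reporter that is known to be stronger in flies expressing PABPN1-17ala. Read as sample over reference, GstD1 was higher in these flies at day 2 by 2.15 on Cy5 and by 2.19 on Cy3. Were the ratio the other way round, every sign below would turn. The 18 arrays of each dye were fitted with limma, giving 1 mean per condition. The change of a gene is the mean of both dyes with the mean of their standard errors (SE), and its p is the larger of both dyes' p, set to 1 for genes with opposite signs. These p-values were adjusted over 13791 genes by Benjamini-Hochberg. A gene is said to have risen or fallen where this adjusted p was below 0.05.

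Between day 6 and day 11, 20 of 13791 genes changed (0.145%), of which 7 rose (0.0508%) and 13 fell (0.0943%). The median size of their change was 0.99 on the log2 scale, or 1.98-fold, while the median change of all genes was −0.02. For all 20 genes, the 3 day 11 arrays lay on one side of the 3 day 6 arrays on each dye, which was so for 1.95% of all genes upward and 2.52% downward. Without the adjustment, 170 genes (1.23%) were higher and 274 (1.99%) lower at a p below 0.05. This p must be low on both dyes with the same sign. Where each dye's p is right, a share of unchanged genes smaller than 0.05 passes it. These shares can thus not be held against 0.05, and a gene that did not pass may still have changed. Leaving out 1 of the 12 arrays gave 3 to 19 called genes, of which 3 to 13 were among the 20. The genes snRNA:U1:82Eb, Obp56d and alphaTub85E were called each time. In these 12 fits CG17646, Acbp5, Mal-A7 and CG2017 were called 0 times, Mur18B and tobi 1 time each, and the other 11 genes 2 to 11 times. In fits of the 12 control arrays alone, without the spread of the other conditions, 0 genes were called by limma, the lowest adjusted p was 0.158, and 444 genes had an unadjusted p below 0.05. That many (3.22%) also passed it in the fits of all conditions. The split between the directions depends on the scaling of the arrays: 35% of called genes rose in the deposited values, 46.2% (6 higher, 7 lower) after centring each array on its median, and 73.1% (19 higher, 7 lower) after quantile normalization within a dye. Of the 20 genes, 13 were still called after centring and 11 after quantile normalization. The ratios to the day 2 pool spread wider over genes on each day 11 array, with a standard deviation of 0.265 to 0.386. On the day 6 arrays it was 0.196 to 0.239. Arrays of the same age and dye correlated at 0.68 to 0.81 at day 6 and at 0.42 to 0.64 at day 11. The changes on Cy5 and Cy3 were only weakly related across genes, at r = 0.147, where most genes may not have changed. Genes are no independent replicates. At a p below 0.05 on each dye, 444 genes had the same sign and 189 opposite signs. The same ages in PABPN1-17ala thoraxes gave r = 0.39 between the dyes. A spot named Blank, which holds no fly gene, moved by 1.07 on Cy5 and by −0.996 on Cy3.

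**Figure D1:**
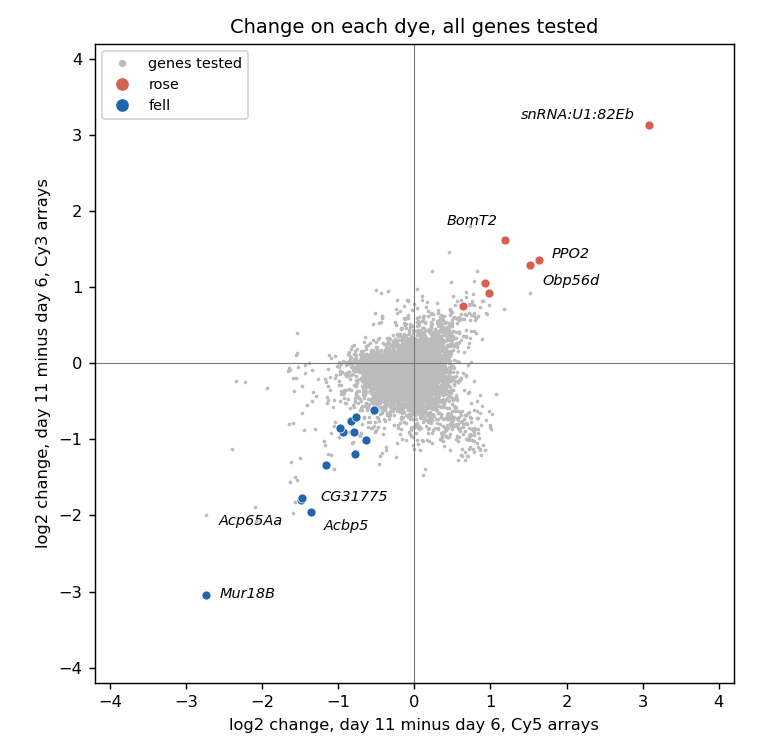
Each point is 1 of 13791 genes, with its log2 change from day 6 to day 11 in control thoraxes on the Cy5 arrays (horizontal axis) and on the Cy3 arrays (vertical axis). The 7 genes that rose (red) and the 13 that fell (blue) lie near the diagonal. The test favours this place, since it asks for a low p with the same sign on both dyes. Most genes form a cloud around 0 with no common slope, and a tail at the lower right holds genes that read higher on Cy5 and lower on Cy3.

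**Figure D2:**
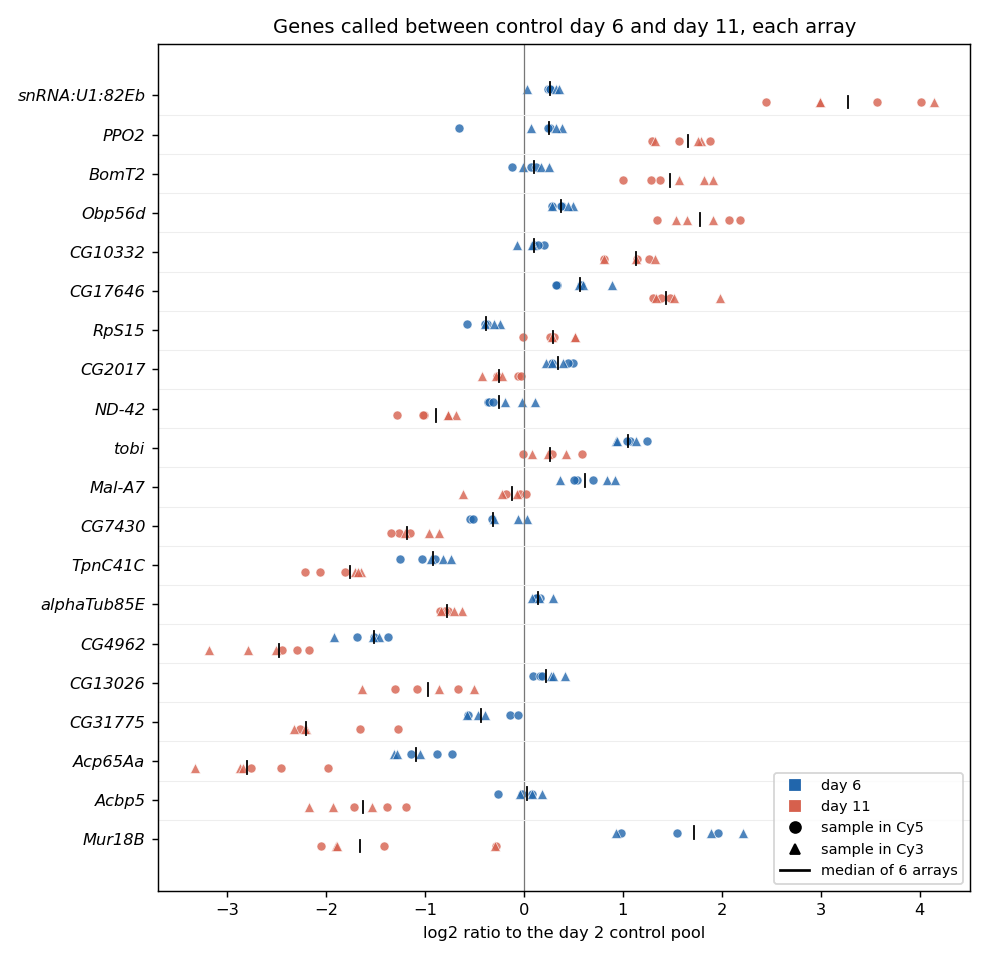
For the 20 genes that changed, each point is 1 array, with the log2 ratio to the day 2 control pool on the horizontal axis, day 6 in blue, day 11 in red, circles for the sample in Cy5, triangles for Cy3 and a black line at the median of 6 arrays. The arrays of both ages do not overlap on either dye in any of the 20 genes, and snRNA:U1:82Eb and Mur18B moved the farthest.

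The largest rise was that of snRNA:U1:82Eb (CR32862, chromosome arm 3R), a gene of U1, the small nuclear RNA that recognizes the start of introns in the spliceosome, named for its place on the polytene chromosome map. It read 0.03, 0.26 and 0.35 (lowest, median and highest of 6 arrays) at day 6 and 2.45, 3.28 and 4.14 at day 11. The change was 3.11 ± 0.26 (SE), or 8.65-fold, with a limma adjusted p of 0.000212. U1 has several near-identical gene copies, whose RNA 1 oligonucleotide may not separate, so the value may stand for U1 RNA of several genes. U1 itself carries no poly(A) tail, and the RNA was amplified with a kit that starts from poly(A) tails, so what the spot measures was not tested. None of the other 10 snRNA genes on the array changed: the list of 11 had a median of −0.09, and the other 10 ranged from −0.26 for snRNA:U6atac to 0.07 for snRNA:U5:23D.

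Among the effectors of immunity, BomT2 and PPO2 rose. BomT2 (CG16836, 2R) encodes a Bomanin, a short secreted peptide of the Toll response. Its arrays read −0.12, 0.10 and 0.25 at day 6 and 1.00, 1.47 and 1.91 at day 11, a rise of 1.41 ± 0.21, or 2.66-fold (limma adjusted p = 0.0139). No day 11 array came near the day 6 range. PPO2 (CG8193, 2R), a prophenoloxidase of crystal cells that makes melanin at wounds and on parasites, read −0.66, 0.25 and 0.39 at day 6 and 1.30, 1.66 and 1.88 at day 11. This amounts to 1.497 ± 0.18, or 2.82-fold (adjusted p = 0.0116). A single day 6 array, replicate 1, lay apart at −0.66. PPO1, the second prophenoloxidase of crystal cells, gave 0.17 ± 0.11 (adjusted p = 1), and PPO2 was the only 1 of 21 genes of cuticle tanning and melanin that changed.

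The Bomanin family, drawn as a list after values had been seen, had a median change of 0.59 over 11 genes, against −0.02 over all genes. Besides BomT2, no member passed the test. Of the 11 genes, 9 were higher on both dyes and 0 were lower on both, where 20.5% and 27.8% of all genes were. The family mean of each array lay at 0.05 to 0.31 at day 6 and at 0.29 to 1.07 at day 11, so the ages met only at the edges of their ranges. BomS4 read −0.13, 0.09 and 0.28 at day 6 and 0.69, 0.99 and 1.20 at day 11, with an adjusted p of 0.412. BomBc1 gave 0.73 ± 0.24 and an adjusted p of 0.832. BomS5 gave −0.01 and BomS3 0.09. Most of these genes lie side by side on 2R and resemble each other in sequence, so their oligonucleotides may share RNA. The wider list of 35 antimicrobial peptide genes, which includes the Bomanins, had a median of 0.07, and BomT2 was its only called member. Drs (Drosomycin, an antifungal peptide) gave 0.59 ± 0.20 (adjusted p = 1), Def (Defensin) 0.32 ± 0.09 (adjusted p = 0.548) and Mtk (Metchnikowin) 0.05. None of 47 genes of immune recognition and of Imd and Toll signalling changed, and their median was −0.01. The 12 haemocyte markers had a median of −0.00 with 0 called, and their mean per array ranged from −0.03 to 0.04 at day 6 and from −0.12 to 0.16 at day 11.

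Obp56d (CG11218, 2R), a secreted odorant-binding protein, read 0.29, 0.38 and 0.50 at day 6 and 1.35, 1.78 and 2.19 at day 11. The rise of 1.41 ± 0.14, or 2.65-fold (limma adjusted p = 0.00141), was called whichever array was left out. In the list of 67 odorant-binding and chemosensory genes it was the only one that changed. The median of the list was −0.01, and 0.00 after centring and 0.01 after quantile normalization. The median of all genes was −0.02, −0.005 and 0.01 in the same order. Obp99b gave 1.22 ± 0.30 (adjusted p = 1), with 0.35, 1.14 and 1.32 at day 6 and 1.43, 2.18 and 3.03 at day 11. CheB38b, of a family of secreted chemosensory proteins, gave 0.70 ± 0.11 (adjusted p = 0.101). Neither of these passed the test.

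RpS15 (CG8332, 2R), a protein of the small ribosomal subunit, read −0.57, −0.39 and −0.24 at day 6 and −0.01, 0.29 and 0.52 at day 11, a rise of 0.69 ± 0.12, or 1.62-fold (limma adjusted p = 0.0347). It was the only 1 of 91 cytosolic ribosomal protein genes that changed. The list had a median of 0.14, or 0.39 after quantile normalization. Of its genes, 45 were higher and 13 lower on both dyes, where 20.5% and 27.8% of all genes were. The mean of the list per array ranged from −0.35 to −0.18 at day 6 and from −0.27 to 0.10 at day 11, so the ages overlapped. RpL6 (0.69 ± 0.16, adjusted p = 0.198) and RpL14 (0.66 ± 0.19, adjusted p = 0.449) were of the size of RpS15 with a wider spread, and RpS19b gave −0.64 ± 0.24 (adjusted p = 1).

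The remaining genes that rose have no role that could be named here. CG10332 (2R) read −0.07, 0.10 and 0.20 at day 6 and 0.81, 1.14 and 1.33 at day 11, a rise of 0.99 ± 0.14, or 1.99-fold (limma adjusted p = 0.0139). CG17646 (2L) read 0.33, 0.57 and 0.90 at day 6 and 1.30, 1.43 and 1.98 at day 11, a rise of 0.95 ± 0.17, or 1.93-fold (adjusted p = 0.0432). In CG17646 the highest day 6 array and the lowest day 11 array were 0.90 and 1.30, and the call did not hold after quantile normalization (0.81, adjusted p = 0.121). CG10433 gave 1.02 ± 0.14 with an adjusted p of 0.0583, and CG12158 gave 0.95 ± 0.23 with an adjusted p of 1. Although their 3 day 11 arrays lay above the 3 day 6 arrays on each dye, neither passed the test.

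The largest fall was that of Mur18B (CG7874, X), a mucin-related protein with chitin-binding domains, which was counted in the list of structural cuticle proteins. It read 0.93, 1.72 and 2.22 at day 6 and −2.05, −1.66 and −0.28 at day 11. The change of −2.90 ± 0.49, or 7.44-fold (limma adjusted p = 0.0378), was also the least precise of the 20. The call held in 1 of 12 fits that left out 1 array, was lost after centring (adjusted p = 0.052) and held after quantile normalization (0.0474). At day 11, replicates 2 and 5 read −0.28 and −0.29, apart from the other 4 arrays at −2.05 to −1.42. At day 2 the gene read −0.67, −0.12 and 1.06, so the day 6 arrays were the high ones, but the change from day 2 to day 6, which shares the day 6 arrays, had an adjusted p of 0.67. Of 19 genes named as mucins or mucin-related, a list drawn after values had been seen, Mur18B alone changed. Muc11A gave −1.78 (adjusted p = 0.107) and the median of the list was −0.08.

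Acp65Aa (CG10297, 3L), an adult cuticle protein, fell further below the day 2 level, from −1.31, −1.10 and −0.73 at day 6 to −3.32, −2.80 and −1.98 at day 11. This was a fall of 1.64 ± 0.25 on the log2 scale, or 3.12-fold (limma adjusted p = 0.0344). Its call did not hold after quantile normalization (−0.86, adjusted p = 0.334). Mur18B and Acp65Aa were the only called members among 140 structural cuticle protein genes. Of the 140 genes, 53 were lower and 23 higher on both dyes, where 27.8% and 20.5% of all genes were. Their median of −0.04 turned to 0.01 after quantile normalization, and that of all genes moved from −0.02 to 0.01 as well. Cpr62Bc gave −0.96 ± 0.17 (adjusted p = 0.112) and Cpr92F −1.001 ± 0.29 (adjusted p = 0.559), both below the day 2 level on all arrays of both ages. These genes were already low at day 6.

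Mal-A7 and tobi, enzymes of sugar digestion, fell. Mal-A7 (CG11669, 2R), a maltase, read 0.37, 0.62 and 0.92 at day 6 and −0.62, −0.12 and 0.02 at day 11, a fall of 0.83 ± 0.14 on the log2 scale, or 1.78-fold (limma adjusted p = 0.0499). tobi (CG11909, 3R), an alpha-glucosidase known as a target of brain insulin in the fat body and gut, read 0.93, 1.06 and 1.25 at day 6 and −0.01, 0.26 and 0.59 at day 11. It fell by 0.79 ± 0.14 on the log2 scale, or 1.73-fold (adjusted p = 0.0378). At day 2, tobi read −0.05, 0.04 and 0.51, and its change from day 2 to day 6 was 0.95 (adjusted p = 0.00821, where 0.225% of all genes rose), so the day 6 arrays were high on both sides. The call of Mal-A7 rested near the threshold. After centring each array, Mal-A7 gave −0.81 (adjusted p = 0.0594) and tobi −0.77 (0.0703), which left 0 called maltases, whereas after quantile normalization both were called, at −0.89 (0.0279) and −0.93 (0.0055).

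The 11 maltase genes, a list drawn after values had been seen, had a median change of −0.51, which was −0.50 after centring and −0.55 after quantile normalization. Mal-A7 and tobi were its called members, and 8 of 11 were lower on both dyes and 1 was higher, where 27.8% and 20.5% of all genes were. The mean over the 11 genes ranged from 0.29 to 0.57 at day 6 and from −0.29 to −0.01 at day 11, with no overlap. Mal-A1, the farthest from 0, read 0.67, 1.05 and 1.48 at day 6 and −1.23, −0.42 and −0.06 at day 11, a change of −1.60 ± 0.31 with an adjusted p of 0.104. Mal-A8 (−0.69, adjusted p = 0.111) and Mal-A6 (−0.71, adjusted p = 0.112) came close as well, while Mal-A4 (−0.03), Mal-B1 (0.02) and Mal-B2 (−0.07) stayed near 0. Mal-A1 to Mal-A8 are neighbours on 2R and alike in sequence, so oligonucleotides of this family may share RNA.

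The digestive enzymes of the midgut gave lower values without a call. None of 35 genes for trypsins, Jonah proteases and other gut enzymes passed the test. On both dyes 23 were lower and 0 higher, where 27.8% and 20.5% of all genes were. The median of the 35 genes was −0.22, or −0.14 after quantile normalization. Their mean per array ranged from 0.15 to 0.32 at day 6 and from −0.44 to 0.06 at day 11. Jon99Fii, a serine protease of the gut, read 0.31, 1.20 and 1.63 at day 6 and −2.61, −1.11 and −0.52 at day 11, a change of −2.37 ± 0.58 (limma adjusted p = 0.227). At day 2 it ranged from −1.74 to 1.00, which spans most of this difference. Jon99Ciii gave −1.99 ± 0.58 (adjusted p = 0.571), and its day 11 arrays ranged from −2.61 to 0.80, with replicates 3 and 6 at −2.61 and −1.87 and the other 4 at −0.30 to 0.80. yip7 gave −1.15 ± 0.27 (adjusted p = 0.201), and its arrays of both ages did not overlap. How much gut each dissected thorax held was not measured, and its part in the values of the maltases and gut enzymes was not tested.

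**Figure D3:**
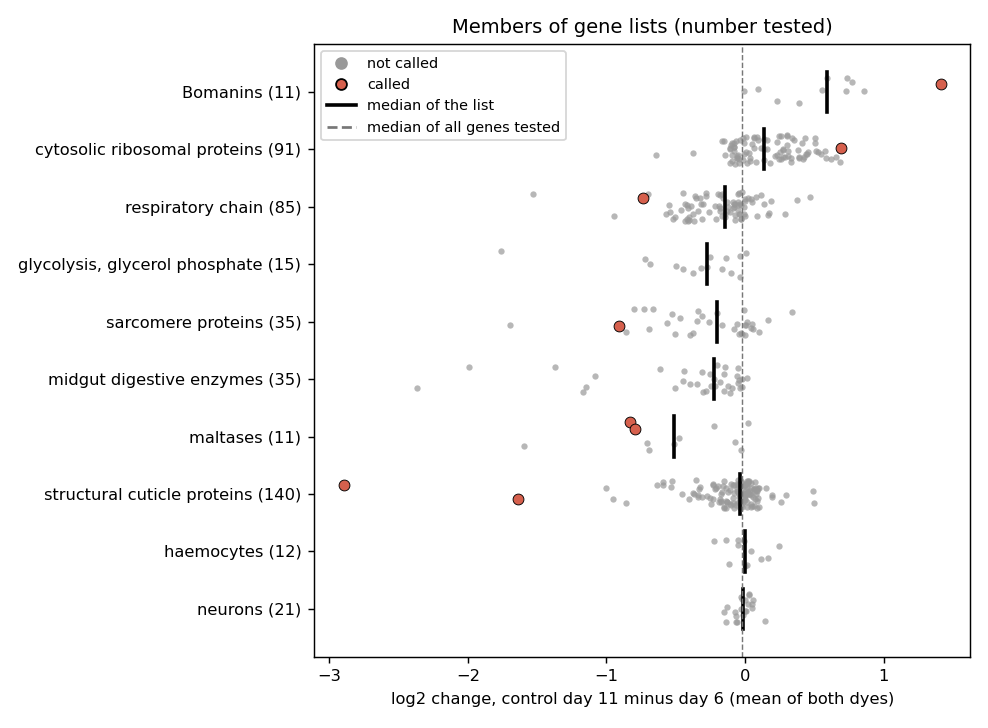
Each point is a member of a gene list, with its log2 change from day 6 to day 11 (mean of both dyes) on the horizontal axis, called genes in red, a black bar at the median of the list and a dashed line at the median of all genes, −0.02. The Bomanins (median 0.59) and the maltases (−0.51), both drawn after values were seen, lie farthest from the dashed line, and haemocyte and neuron markers stay on it. After quantile normalization the medians of sarcomere proteins and of the respiratory chain moved to −0.01 and −0.02 and that of cuticle proteins turned to 0.01. The median of all genes moved to 0.01 as well.

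Of the muscle genes, TpnC41C fell. TpnC41C (CG2981, 2R) encodes a troponin C, the subunit that binds calcium to start contraction. It read −1.25, −0.92 and −0.74 at day 6 and −2.21, −1.76 and −1.65 at day 11, a fall of 0.91 ± 0.14 on the log2 scale, or 1.88-fold (limma adjusted p = 0.0280). Since these are whole thoraxes, fewer cells of a type and less RNA per cell cannot be told apart. After quantile normalization the change was −0.27 with an adjusted p of 1, so this call depends on the scaling. The other 4 troponin C genes, a list drawn after values had been seen, gave −0.52 ± 0.21 for TpnC4 (adjusted p = 1), −0.20 for TpnC25D, 0.01 for TpnC73F and 0.06 for TpnC47D.

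TpnC41C was the only called member of 35 sarcomere identifiers. Their median was −0.20, with 18 lower and 2 higher on both dyes, and after quantile normalization it was −0.01 with 11 lower and 9 higher. Of all genes, 27.8% were lower and 20.5% higher on both dyes, and 21.3% and 28.3% after quantile normalization. The mean of the sarcomere list per array ranged from −0.35 to −0.04 at day 6 and from −0.65 to −0.33 at day 11. Mlc2, the regulatory light chain of myosin, read −0.89, −0.24 and 0.41 at day 6 and −2.55, −1.88 and −1.28 at day 11, a change of −1.70 ± 0.34 (limma adjusted p = 0.0950). Mlp60A, a muscle LIM protein, gave −0.69 ± 0.12 through the identifier CG30179 (adjusted p = 0.0583) and 0.04 and 0.00 through its other 2 identifiers. Mhc, the muscle myosin heavy chain, gave −0.80 ± 0.23 (adjusted p = 1), −0.42 on Cy5 and −1.18 on Cy3, with day 6 arrays from −1.52 to −0.06 and day 11 arrays from −1.89 to −0.90. The flight muscle genes up (−0.02), fln (−0.31), sls (0.05), Tm2 (0.10) and bt (−0.05) did not pass the test. Act88F, the actin of flight muscle, was not tested, because 1 of the other conditions, PABPN1-17ala at day 11, held only 1 value on Cy3. Its control arrays with a value read −0.21 and −0.69 at day 6 and −1.75 to −1.06 at day 11 on Cy5, and 0.83 and −0.44 at day 6 and −0.95 to −0.64 at day 11 on Cy3. All 6 day 11 arrays thus lay below the 4 day 6 arrays of the same dye, as a description without a test. Among 12 genes of calcium handling, 0 changed, Scp1 gave −1.46 ± 0.37 (adjusted p = 0.261) and SERCA −0.93 ± 0.29 (adjusted p = 0.776).

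Among the genes of energy metabolism, ND-42 and CG7430 fell. ND-42 (CG6343, 3R), a subunit of respiratory chain complex I, read −0.36, −0.25 and 0.11 at day 6 and −1.29, −0.89 and −0.69 at day 11. Its fall was 0.73 ± 0.11 on the log2 scale, or 1.66-fold (limma adjusted p = 0.0313), and −0.39 with an adjusted p of 0.418 after quantile normalization. CG7430 (3L) encodes dihydrolipoyl dehydrogenase, which serves the pyruvate and 2-oxoglutarate dehydrogenase complexes. It read −0.54, −0.31 and 0.03 at day 6 and −1.34, −1.18 and −0.86 at day 11, a fall of 0.84 ± 0.13, or 1.80-fold (adjusted p = 0.0378), and −0.52 with an adjusted p of 0.178 after quantile normalization. muc, the acetyltransferase of the pyruvate dehydrogenase complex, gave −0.90 ± 0.16 with an adjusted p of 0.264.

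ND-42 was the only 1 of 85 nuclear genes of the 5 respiratory chain complexes that changed. On both dyes, 39 of them were lower and 6 higher with a median of −0.14, whereas after quantile normalization 20 were lower and 18 higher with a median of −0.02. Of all genes, 27.8% were lower and 20.5% higher on both dyes, with a median of −0.02. After quantile normalization these shares were 21.3% and 28.3%, with a median of 0.01. By complex, the medians were −0.12 for complex I, −0.04 for complex II, −0.26 for complex III, −0.16 for complex IV and −0.34 for complex V. The alpha and gamma subunits of the ATP synthase, blw and ATPsyngamma, gave −1.53 ± 0.32 (adjusted p = 0.346) and −0.94 ± 0.19 (adjusted p = 0.148), and UQCR-C1 of complex III −0.70 ± 0.14 (adjusted p = 0.148). The list of the citric acid cycle, which does not hold CG7430, had 0 of 21 genes called. Its median of −0.05 turned to 0.02 after quantile normalization, where that of all genes was 0.01. Mdh2, the mitochondrial malate dehydrogenase, gave −0.73 ± 0.15 (adjusted p = 0.112). The 15 genes of glycolysis and the glycerol phosphate shuttle had a median of −0.27, or −0.21 after quantile normalization, with 9 lower and 0 higher on both dyes and 0 called. Gapdh1, an enzyme of glycolysis, gave −1.76 ± 0.42 (adjusted p = 1), and its day 11 arrays split into replicates 4 and 6 at 0.36 and 0.73 and the other 4 at −2.97 to −1.59.

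alphaTub85E (CG9476, 3R), an alpha-tubulin of the microtubules, was called whichever array was left out. It read 0.08, 0.14 and 0.29 at day 6 and −0.85, −0.78 and −0.63 at day 11, a fall of 0.92 ± 0.10 on the log2 scale, or 1.89-fold (limma adjusted p = 0.00141). At day 2 it read 0.12, 0.16 and 0.44, close to day 6. After quantile normalization it gave −0.73 with an adjusted p of 0.120. None of the other 8 alpha- and beta-tubulin genes, a list drawn after values had been seen, changed, and alphaTub84B gave −0.21, −0.51 on Cy5 and 0.08 on Cy3. The median of the 9 genes was −0.04.

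Acbp5 (CG5804, 3L), of the family of acyl-CoA-binding proteins, read −0.26, 0.03 and 0.19 at day 6 and −2.17, −1.63 and −1.20 at day 11. It fell by 1.66 ± 0.24 on the log2 scale, or 3.16-fold (limma adjusted p = 0.0413). No gene of fat storage and lipid synthesis (0 of 22, median −0.00) or of mitochondrial fatty acid oxidation (0 of 17, median 0.03) changed beside it. CG31775 (2L) read −0.57, −0.43 and −0.06 at day 6 and −2.32, −2.21 and −1.28 at day 11, a fall of 1.62 ± 0.24, or 3.08-fold (adjusted p = 0.0139). CG13026 (3L) fell by 1.25 ± 0.20, or 2.37-fold (adjusted p = 0.0297), from 0.09, 0.23 and 0.42 to −1.64, −0.97 and −0.51. All 3 genes were below the day 2 pool on the 6 arrays of day 11, and at day 6 only CG31775 was. After quantile normalization Acbp5 gave −1.33 (adjusted p = 0.169) and CG31775 −1.13 (adjusted p = 0.119), and CG13026 was still called.

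CG4962 (3L) read −1.92, −1.52 and −1.38 at day 6 and −3.18, −2.48 and −2.17 at day 11, a fall of 0.99 ± 0.16 on the log2 scale, or 1.98-fold (limma adjusted p = 0.0347). It had also fallen between day 2 and day 6, by 1.56 (adjusted p = 0.00437, where 0.355% of all genes fell), a comparison that shares the day 6 arrays. After quantile normalization its change from day 6 was −0.25 with an adjusted p of 1. CG2017 (3R) fell by 0.57 ± 0.09, or 1.49-fold (adjusted p = 0.0350), from 0.22, 0.34 and 0.50 to −0.43, −0.25 and −0.02. It is the smallest of the 20 changes, and its call was lost after centring (adjusted p = 0.0537) and in each of the 12 fits that left out 1 array, but not after quantile normalization (0.0316).

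The marker lists of other tissues held 1 called gene between them. Fat body markers (13) had 1 called member, tobi, and a median of −0.12, with a mean per array of 0.32 to 0.45 at day 6 and −0.01 to 0.17 at day 11. Larval serum and storage proteins, the amino acid stores of the larva, had 0 of 6 called. All 6 were lower on both dyes, where 27.8% of all genes were, and the median was −0.25. Lsp1beta read −0.10, 0.45 and 0.54 at day 6 and −1.004, −0.83 and −0.63 at day 11, with a change of −1.16 ± 0.21 and a limma adjusted p of 0.101. Lsp2 gave −0.71 ± 0.21 (adjusted p = 1). Neuron markers (21, median −0.01), photoreceptor markers (21, 0.02), ovary and egg (21, −0.03), testis (18, −0.02) and male accessory gland and ejaculatory duct (20, −0.03) had 0 called genes. Oenocyte genes of cuticular hydrocarbon synthesis (11) had a median of 0.04 and 0 called, and Cyp4g1, the last enzyme of this synthesis, gave 0.78 ± 0.19 (adjusted p = 0.943).

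Genes of protein quality control and stress did not pass the test. None of 48 proteasome subunit genes (median 0.00), 21 autophagy genes (−0.04), 35 glutathione S-transferase genes (−0.02) or 12 genes of endoplasmic reticulum stress (−0.03) changed. Of 24 heat shock proteins and chaperones 0 changed and the median was −0.03. Hsp83, the fly Hsp90, read −1.16, −0.82 and −0.61 at day 6 and −0.88, 0.24 and 1.81 at day 11, with a change of 1.26 ± 0.33 and a limma adjusted p of 0.842. Hsc70-4, a constitutive Hsp70, gave 0.63 ± 0.24 (adjusted p = 1) with no overlap between its ages, 0.19 to 0.62 against 0.75 to 1.52. cnc, the fly Nrf2 that turns on antioxidant genes, gave 0.73 ± 0.15 (adjusted p = 0.215).

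The same ages were compared in flies expressing PABPN1-17ala, on 12 other arrays. There, 132 genes changed (0.957%), 72 upward (0.522%) and 60 downward (0.435%). Of the 7 genes that rose in control thoraxes, 5 also rose in PABPN1-17ala thoraxes, and 6 were higher on both dyes, where 25.4% of all genes were. The changes there were 2.61 ± 0.26 for snRNA:U1:82Eb (limma adjusted p = 0.000387), 2.18 ± 0.21 for BomT2 (0.000387), 1.78 ± 0.14 for Obp56d (0.000248), 1.18 ± 0.12 for RpS15 (0.000255) and 1.06 ± 0.14 for CG10332 (0.0029). PPO2 gave 0.79 ± 0.18 (adjusted p = 0.258) and CG17646 −0.14 ± 0.17 (adjusted p = 1). The difference between the genotypes did not pass the test for CG17646 (−1.09 ± 0.24, adjusted p = 0.405) or for any other of the 20 genes.

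Of the 13 genes that fell in control thoraxes, all 13 were lower on both dyes in PABPN1-17ala thoraxes, where 23.7% of all genes were, and 2 fell there, alphaTub85E by 0.67 ± 0.10 on the log2 scale (limma adjusted p = 0.0476) and TpnC41C by 1.04 ± 0.14 (adjusted p = 0.00177). For 12 of the 13 the change was smaller in size than in control thoraxes, with medians of −0.47 against −0.92. The control values chose these genes and so lean toward large sizes. Mur18B gave −1.43 ± 0.49 (adjusted p = 0.562), Acbp5 −0.47, Acp65Aa −0.41 and CG31775 −0.33. The values of the last 3 rest in part on 1 array, PABPN1-17ala day 11 replicate 4, which read −1.52 for Acbp5 (the other 5 arrays −0.42 to −0.18), −2.88 for Acp65Aa (−1.74 to −1.06) and −1.94 for CG31775 (−0.96 to −0.32). Without this array Acbp5 gave −0.29, Acp65Aa −0.20, CG31775 −0.12 and Mur18B −1.61, the median of the 13 genes was −0.29, 12 of 13 were again smaller in size, and CG7430 was called as well (−0.62, limma adjusted p = 0.0375). The 7 genes called in both genotypes are 35% of the control calls and 5.3% of the PABPN1-17ala calls, all in the same direction. The list medians differed in size: −0.07 for the maltases and −0.00 for the midgut enzymes, against −0.51 and −0.22 in control thoraxes, 0.17 for the respiratory chain against −0.14, 0.38 for ribosomal proteins against 0.14, and 0.90 for the Bomanins against 0.59. No test of a difference between lists was made. The PABPN1-17ala medians are of the deposited values with day 11 replicate 4, and were not redone without it or after rescaling.

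**Figure D4:**
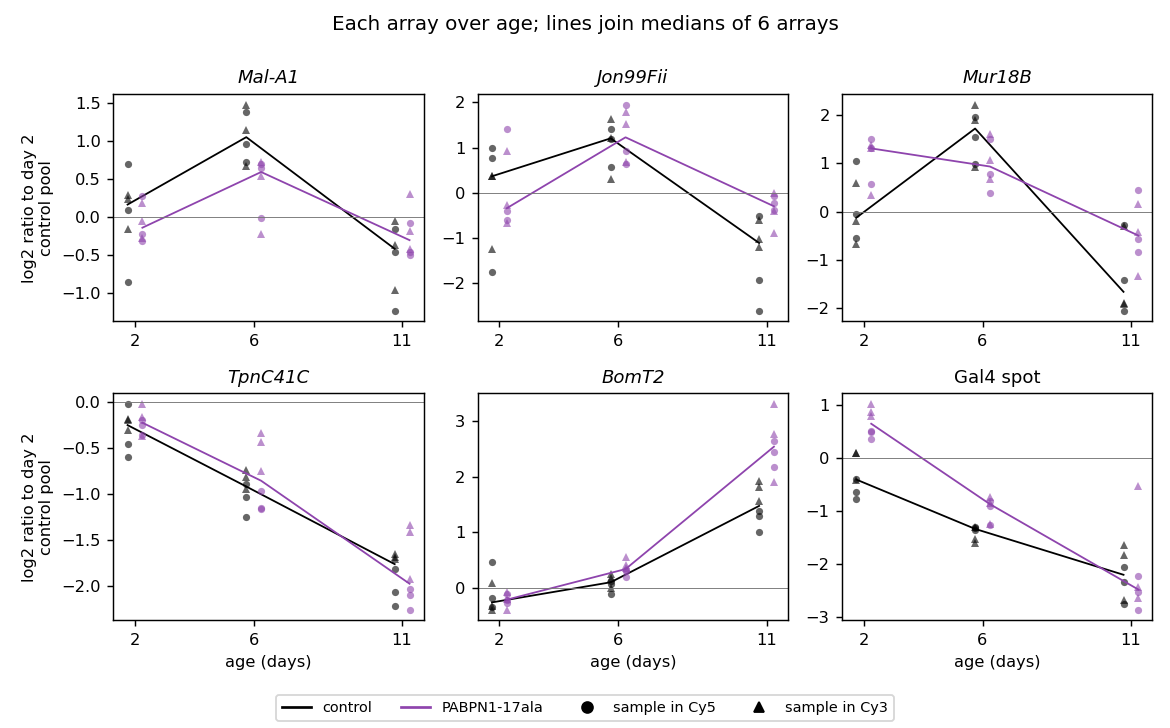
The panels show the log2 ratio to the day 2 control pool (vertical axis) against age in days (horizontal axis) for Mal-A1, Jon99Fii, Mur18B, TpnC41C, BomT2 and the Gal4 spot, each point 1 array (circles Cy5, triangles Cy3), control in black and PABPN1-17ala in purple, with lines joining medians of 6 arrays. In control thoraxes Mal-A1, Jon99Fii and Mur18B have their highest median at day 6, TpnC41C and the Gal4 spot their lowest at day 11, and BomT2 its highest at day 11.

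For the genotypes' difference in the change from day 6 to day 11, 6 of 13791 genes passed the test (0.0435%). All 6 had a lower change in PABPN1-17ala thoraxes, and 0 genes passed with a higher one. At an unadjusted limma p below 0.05, 195 were higher (1.41%) and 193 lower (1.4%). Without PABPN1-17ala day 11 replicate 4, 11 genes passed the test as higher and 18 as lower. In control thoraxes none of the 6 genes from the fit of all arrays changed. Their changes there were 0.01 for Ada2b, a subunit of histone acetyltransferase complexes, 0.03 for Rsod, 0.50 for vri, a repressor of the circadian clock, 0.06 for rad50, a DNA repair protein, 0.23 for cbt, a transcription factor, and 0.13 for PlexA, a semaphorin receptor. In PABPN1-17ala thoraxes the same genes gave −1.98, −2.33, −1.18, −0.57, −0.96 and −0.75.

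The array also held a spot for the coding sequence of Gal4, the yeast transcription factor that the driver makes in muscle in both genotypes. In control thoraxes it read −0.77, −0.41 and 0.09 at day 2, −1.60, −1.34 and −1.30 at day 6 and −2.76, −2.21 and −1.65 at day 11. The change from day 6 to day 11 was −0.82, −1.06 on Cy5 and −0.57 on Cy3, and the ages did not overlap. An exact two-sided permutation test of the arrays within each dye gave p = 0.005, the smallest that its 400 arrangements can give, and 0.115 after adjustment over the 23 spots without a fly gene. This test counts arrays and not extracts. If both dyes share the 3 extracts, fewer arrangements exist and the smallest possible p is larger. Fitted with the genes, limma gave it an adjusted p of 1 (unadjusted 0.176). In PABPN1-17ala thoraxes, where Gal4 drives the transgene, the change was −1.24. The exact permutation test, again over arrays, gave p = 0.02, and limma gave an adjusted p of 0.728 (unadjusted 0.0367). There the ages overlapped, since day 11 replicate 4 read −0.53, above all 6 day 6 arrays at −1.27 to −0.74, while the other 5 day 11 arrays read −2.87 to −2.23.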

How the data were processed

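RNA was extracted with Trizol and cleaned on columns, and 1 μg per sample was amplified with the Message Amp kit, which starts from poly(A) tails, and labelled with Cy3 or Cy5. The log2 ratios were normalized and deposited by the authors as 1 value for each array and gene identifier. The log base, the background correction and the normalization are not given in the sources used here. Intensities were not used, and the number of arrays limits the precision. Of 13820 gene identifiers, the annotation of RefSeq's Release 6 gave a symbol to 12047 through the locus tag and to 1153 through a synonym, and 620 kept their identifier. Another 23 lines hold spots without a fly gene. Of all array values, 0.187% were empty, and 0 columns belonged to no sample. No 2 of the 36 arrays (630 pairs) were identical.

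Genes with at least 2 of 3 values in each condition and dye were tested (13791, with 29 left out) with limma 3.58.1 in R 4.3.3, as described above, after the procedure had been tested on simulated data. In that test, a shift shared by the 3 arrays of a condition on 1 dye, drawn apart for each dye, passed as a change more often than the adjustment to 0.05 allows. In the data such a shift cannot be told apart from a change, so the calls may hold more false ones than 0.05 of them. The study's own analysis was a two-way ANOVA of genotype and time. For 1 of the other arrays, PABPN1-17ala day 2 replicate 1, which enters only the estimate of the spread, one label names the control genotype.

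The members and the gene lists were chosen with earlier results of these data known, and the tests of single spots count arrays, not extracts. Named were the 10 genes that rose and the 10 that fell the most among called genes with all arrays on one side on each dye, filled up with uncalled genes of that kind where fewer than 10 were called, up to 4 called members of each list, and cell type markers. CG2017 and the uncalled list members were named after their values were seen. Alternatives were a single fit of 36 arrays, each dye alone, means of assumed pairs, a replicate block, fits of control arrays alone, ordinary variances, centring, quantile normalization, filters on empty values and on spread, a threshold of 0.01, a minimum of 1.5-fold, and leaving out each array.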

Additional observations from a re-analysis of the deposited data

Results flagged for a closer look

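In 4 of 48 groups of 6 arrays, tested over 24 items, 1 array lay apart from the other 5. For 6 independent values of 1 normal distribution, chance puts 1 apart in about 1 in 20 groups. Here both dyes probably share the extracts, so this share may not hold. For snRNA:U1:82Eb, day 6 replicate 4 read 0.0295 and the others 0.24 to 0.35. For PPO2, day 6 replicate 1 read −0.66 and the others 0.07 to 0.39. For CG17646, day 11 replicate 4 read 1.98 and the others 1.30 to 1.52. For alphaTub85E, day 6 replicate 5 read 0.29 and the others 0.08 to 0.16.

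For 6 genes the change from day 6 to day 11 differed between the genotypes by the test of the difference itself, always lower in PABPN1-17ala thoraxes. The differences were −1.99 for Ada2b (limma adjusted p = 0.00185), −2.35 for Rsod (0.00279), −1.67 for vri (0.0461), −0.63 for rad50 (0.0461), −1.19 for cbt (0.0461) and −0.88 for PlexA (0.0461). Ada2b and Rsod were called in all 24 fits that left out 1 array. The other 4 genes were not called in 21 of these fits, nor with the replicate number as a block (0.0731 to 0.107). In all 6 genes the day 6 median of PABPN1-17ala lay above that of the control, at 2.77 against 0.19 for Ada2b and at 2.59 against −0.09 for Rsod.

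The Gal4 spot, which is no fly gene and entered none of the counts, changed by −0.82 in control thoraxes. Without any 1 array the difference was −0.92 to −0.66.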

How the results depend on the processing

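The 20 called genes and the 3 uncalled ones named with them by rule kept their sign under the 26 alternatives. In these genes the arrays of both ages did not overlap on either dye. Only centring or quantile normalization could thus have turned a sign. The counts moved with the fit, in the order higher and lower in control, higher and lower in PABPN1-17ala, and higher and lower for the difference. A single fit of 36 arrays, which counts both dyes as replicates, gave 184, 282, 565, 543, 200 and 210. Cy5 alone gave 141, 249, 517, 509, 136 and 170, Cy3 alone 77, 226, 293, 268, 17 and 40, and means of assumed pairs 176, 406, 552, 503, 211 and 176. The control arrays of both ages alone gave 0 and 0, all 18 control arrays 1 and 1, and the PABPN1-17ala arrays of both ages alone 4 and 2. Ordinary variances gave 2, 1, 23, 26, 0 and 2, and a threshold of 0.01 gave 2, 1, 23, 22, 0 and 2. Quantile normalization gave 19, 7, 41, 94, 0 and 26. Centring gave 7 lower in control, the filter on spread 20 there and 3 lower for the difference, and a 1.5-fold minimum 38 lower in PABPN1-17ala. The causes were not tested beyond what each fit leaves out or adds.

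The replicate numbers do not pair the samples of day 6 with those of day 11: same-numbered arrays correlated at −0.15 to −0.02. Within an age, the assumed pairs of a Cy5 and a Cy3 array correlated at −0.11 to 0.20. Other pairs of both dyes gave −0.23 to 0.13, a range that overlaps. Each value was taken after removing the mean of its condition and dye. With the number as a replicate block, 8 genes rose and 10 fell in control thoraxes, 16 of the 20 were still called, and 2 were lower for the difference.

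Leaving out 1 array gave 2 to 8 higher and 1 to 11 lower genes in control, 28 to 188 and 28 to 179 in PABPN1-17ala, and 0 to 11 and 2 to 18 for the difference. The control calls were 9, 6, 7, 4, 4 and 11 without day 6 replicates 1 to 6 and 19, 14, 3, 11, 4 and 5 without day 11 replicates 1 to 6. The highest counts in PABPN1-17ala and for the difference came without its day 11 replicate 4.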
